A study of Mus musculus with 4 samples.

Results

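The 10 genes described here encode secreted activators of Wnt signalling: the Wnt ligands Wnt2, Wnt4, Wnt5a, Wnt6, Wnt10a, Wnt11 and Wnt16, and the R-spondins Rspo1, Rspo2 and Rspo3. They were chosen as a list of symbols, with earlier results of these data known. All 10 were found among the 32287 features counted in the penis libraries. Wnt ligands bind Frizzled receptors and either stabilise β-catenin, which then switches on genes together with TCF and LEF factors, or act on cell shape and movement without it. R-spondins bind LGR receptors and keep the ligases RNF43 and ZNRF3 from removing Frizzled, so that a cell answers a Wnt ligand more strongly. In the genital tubercle, Wnt signalling is known for its part in outgrowth and in patterning around the urethra.

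Penises of male mouse embryos at E16.5 were dissociated and their mRNA was counted cell by cell with the 10x Genomics 3′ kit, in 2 samples of each genotype. DTA- embryos (Nr5a1cre- x DTA f/+) carried the toxin allele without Cre, so that it stayed silent. DTA+ embryos (Nr5a1cre+ x DTA f/+) carried the same allele with a Cre transgene driven by the Nr5a1 promoter, which turns on diphtheria toxin A and kills cells that have expressed Nr5a1. By the study's account this Cre also acts in the testes and adrenals, so loss of Nr5a1-lineage cells from the penis and loss of the hormones of those organs cannot be told apart in these samples. Neither litters nor pooling of embryos is given in the labels, so each p-value below measures only the spread between these samples, which may be technical.

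After filtering, 31132 of 47040 cells remained, between 6573 and 8810 per sample, with a median of 3551 to 4700 UMIs (unique transcript molecules) per cell. Both DTA- samples were deeper per cell than both DTA+ samples, and 238 barcodes occurred in 2 libraries. The genotypes in the labels name no tdTomato reporter. Its transcript had 0 UMIs in each DTA- sample and 3579 and 3140 in the DTA+ samples. The study's methods list a tdTomato allele for the ablated embryos and describe its transcript as leaky. The genotype the study gives for its controls names no such allele, so its effect cannot be told apart from that of ablation. Nr5a1 itself had 1 or 2 UMIs per library and checked nothing. Clustering without the 10 genes gave 27 clusters in 24 populations, of which 14 were named from at least 3 enriched markers and are written "-like", and the others are called by their leading pair of genes, or for the Ccn3 cluster by 1 of them. Of these, 20 populations had at least 20 cells in every sample and were tested, 13 of them mesenchymal. The 4 untested ones were smooth muscle-like cells and the Ly6a/Igfbp5, Iyd/Stmn2 and Ccn3 clusters, which share Akap12 among their leading genes and each came mostly from 1 genotype. The erythroid-like cells also held mesenchymal transcripts, so values of the 10 genes there may not belong to blood cells, which was not tested.

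Levels are given as CPM, the UMIs of a gene summed over the cells of a population in a sample and scaled by all UMIs of those cells, and are compared between populations for 1 gene at a time. Where a population is named with a mean, it is the DTA- mean ± SD (n = 2). Populations are ranked where both DTA- samples had at least 20 cells. The populations in which each gene was high in the DTA- penis are shown in the heat map of levels.

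**Figure D1:**
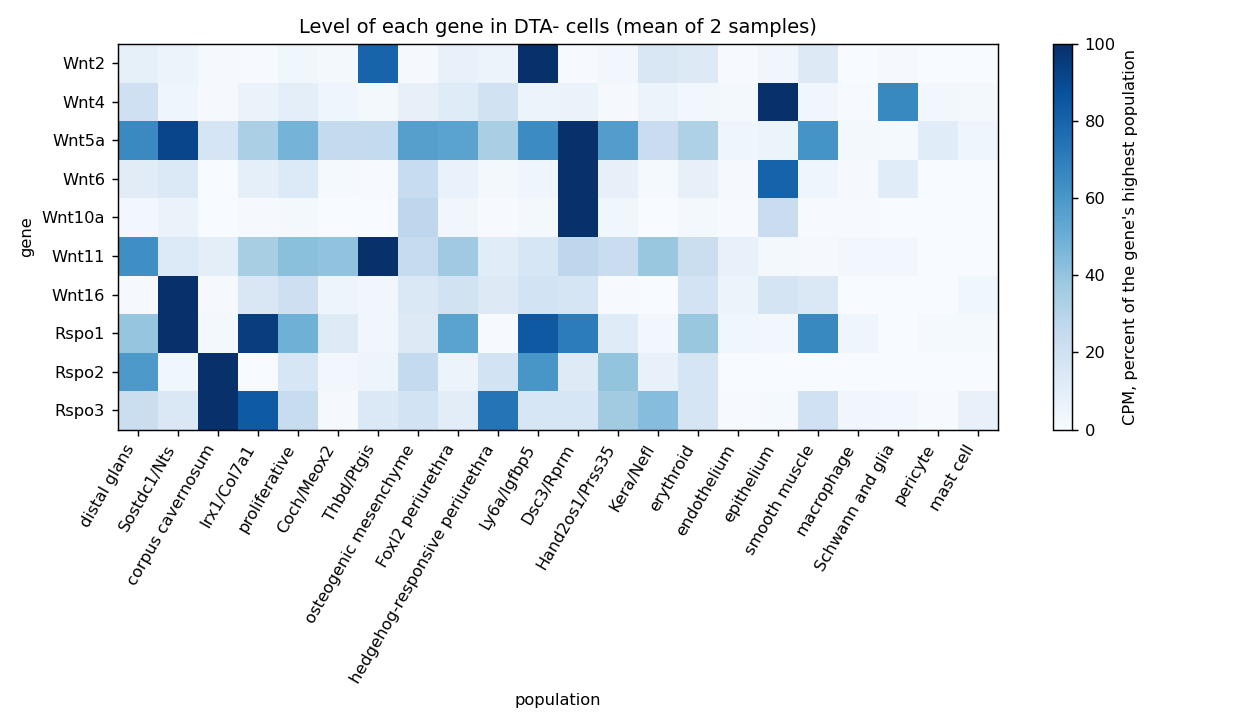
Mean CPM of each gene in the DTA- samples (n = 2), as a percentage of the gene's own highest population, for the populations with at least 20 cells in both DTA- samples. Wnt5a is spread over the mesenchyme, while Wnt16 is concentrated in the Sostdc1/Nts population and Wnt10a in the Dsc3/Rprm population.

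Wnt5a (chr14:28504750-28527448, plus strand, build GRCm38 as for all genes here), a ligand known for signalling without β-catenin and for outgrowth of limb and genitalia, had 112244 UMIs in the kept cells. It was highest in the Dsc3/Rprm population at 1532 ± 208 CPM and in the Sostdc1/Nts population at 1406 ± 205 CPM, whose samples overlapped. The 12 and 11 DTA- cells of the Iyd/Stmn2 cluster, outside this ranking, held 1862 and 1926 CPM in the DTA- samples. Distal glans-like cells followed at 1001 ± 60.5 CPM, below both Sostdc1/Nts samples and overlapping the Ly6a/Igfbp5 cluster at 988 ± 148 CPM. The gene was broad in the mesenchyme, and its lowest tested mesenchymal population, corpus cavernosum-like cells, still held 282 and 231 CPM in the DTA- samples. Macrophage-like cells held 16.7 and 44.1 CPM in the DTA- samples.

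Wnt2 (chr6:17988940-18030585, minus strand), a β-catenin ligand known from lung and placenta, was highest in the Ly6a/Igfbp5 cluster at 159 ± 26.1 CPM. The Thbd/Ptgis population came next at 128 ± 0.608 CPM, apart from it, and Kera/Nefl cells followed far below at 24.0 ± 5.21 CPM. The Ly6a/Igfbp5 cluster held 46.8% of the Wnt2 UMIs of DTA- cells and the Thbd/Ptgis population 29.8%. Wnt4 (chr4:137277489-137299726, plus strand), known from kidney and female duct development, was highest outside the mesenchyme. Epithelium-like cells held 323 ± 47.5 CPM and Schwann and glia-like cells 213 ± 71.2 CPM, apart from each other and from distal glans-like cells at 67.3 ± 2.02 CPM.

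Wnt6 (chr1:74771892-74785322, plus strand) and Wnt10a (chr1:74791516-74804179, plus strand) are ligands known from skin and tooth epithelium, and they are neighbours with 6193 bases between them. Wnt6 stood at 267 ± 27.3 CPM in the Dsc3/Rprm population, overlapping epithelium-like cells at 214 ± 54.4 CPM. Osteogenic-like mesenchyme was apart from both at 63.5 ± 38.4 CPM. Wnt10a was also highest in the Dsc3/Rprm population, at 214 ± 47.7 CPM, apart from osteogenic-like mesenchyme at 59.0 ± 42.2 CPM, which overlapped epithelium-like cells at 48.7 ± 9.76 CPM. Over the 24 populations Wnt10a was the gene most like Wnt6 of 10621 compared (Pearson's r = 0.89 of log2 of mean CPM plus 10). The genes most like Wnt10a were the desmosomal cadherins Dsc2 (r = 0.96) and Dsc3 (r = 0.94), the latter a leading gene of the Dsc3/Rprm population. These populations share the same 4 libraries, so the correlations are descriptions only.

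Wnt11 (chr7:98835112-98855195, plus strand), a ligand of cell movement, was highest in the Thbd/Ptgis population at 60.3 ± 8.96 CPM, apart from distal glans-like cells at 38.3 ± 4.33 CPM. Its closest genes were Isl2 (r = 0.84), Crabp1 (r = 0.79) and Epha5 (r = 0.78). Wnt16 (chr6:22288227-22298522, plus strand), known from bone, reached 135 ± 28.3 CPM in the Sostdc1/Nts population, apart from proliferative-like cells, the next at 28.7 ± 0.227 CPM. Proliferative-like cells pooled a cluster with 3.44 and 6.51 CPM of Wnt16 and a cluster with 80.3 and 57.8 CPM in the DTA- samples. The Sostdc1/Nts population held 54.1% of the Wnt16 UMIs of DTA- cells and 54.5% of those of DTA+ cells. Wnt5a, by contrast with these restricted genes, was most like Col26a1 (r = 0.96) and the homeobox gene Isl1 (r = 0.95), and Wnt2 was most like the cadherin Cdh8 (r = 0.91).

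Rspo1 (chr4:124986430-125009099, plus strand), known from ovary development, was shared by the Sostdc1/Nts population at 202 ± 35.5 CPM, the Irx1/Col7a1 population at 191 ± 35.6 CPM and the Ly6a/Igfbp5 cluster at 169.9 ± 42 CPM, each overlapping the next. The overlaps ran on from there through the Dsc3/Rprm population at 142 ± 31.8 CPM and lower ones. Rspo3 (chr10:29452416-29535867, minus strand), known from vessels and placenta, was shared by corpus cavernosum-like cells at 183 ± 30.9 CPM, the Irx1/Col7a1 population at 153 ± 25.5 CPM and hedgehog-responsive periurethra-like cells at 135 ± 32.9 CPM, overlapping in this order. The last of these was apart from the next, Kera/Nefl cells at 79.2 ± 5.50 CPM. Rspo2 (chr15:43020794-43170826, minus strand), known from limb and lung, was scarce, with 698 UMIs in the kept cells. Its highest DTA- level among the ranked populations was 8.16 ± 0.765 CPM in corpus cavernosum-like cells. It was only narrowly apart from the next, 4.93 ± 3.33 CPM in the Ly6a/Igfbp5 cluster, with nearest samples at 7.62 and 7.28 CPM. Distal glans-like cells pooled a cluster with 9.79 and 8.32 CPM and a cluster with 0.883 and 0.789 CPM in the DTA- samples.

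The comparison of DTA+ with DTA- asked in which populations these genes changed when Nr5a1-lineage cells were ablated. Of 106 gene and population pairs that passed the filter on low counts, 14 had an adjusted p under 0.05 (edgeR quasi-likelihood test on summed counts) and are named called, which is 13.2%. Over all genes in the same 20 populations 3.37% of pairs were called. Because the 10 genes were chosen with earlier results of these data known, the gap between these shares is no independent result. The other 94 pairs had too few UMIs to be tested. The called pairs were 11 higher and 3 lower in DTA+, beside 1.63% and 1.73% of the pairs of all genes, and came from 6 of the 10 genes, 7 of them from Wnt5a. They lay in 8 populations, and in the 12 others between 0% and 3.02% of all genes were called. All 14 lay in the mesenchyme, where 87 pairs were tested. In the 7 other populations 0 of 19 tested pairs were called by edgeR's quasi-likelihood test, 3 had an unadjusted p under 0.05, and DESeq2 and edgeR's likelihood ratio test each called 0. Simulated 2-fold changes were recovered in 1% to 37% of cases in these populations, against 35% to 68% in the mesenchymal ones. In these dissociated tissues the summed level of a gene over several kinds of cells moves with their numbers as well as with the RNA per cell.

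**Figure D2:**
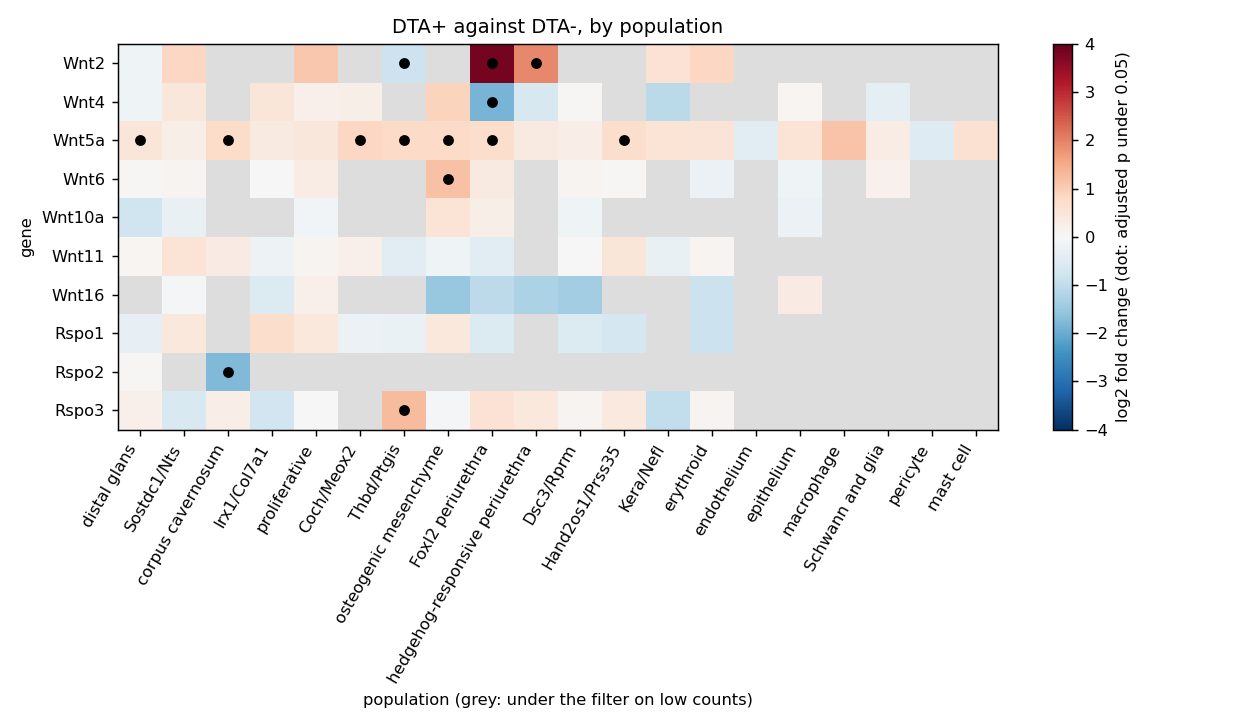
Log2 fold change of each gene, DTA+ against DTA- (n = 2 each), in the 20 tested populations, with red higher and blue lower in DTA+, grey under the filter on low counts and dots marking an adjusted p under 0.05. The 14 dots fall in mesenchymal populations, 7 of them on Wnt5a, and the darkest square is Wnt2 in Foxl2 periurethra-like cells at 3.81.

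Wnt5a was called higher in 7 of the 13 mesenchymal populations, against 2.04% of all gene and population pairs there. In Coch/Meox2 cells it stood at 415 and 361 CPM in DTA- and 659.9 and 737 CPM in DTA+ (log2 fold change 0.81, SE 0.13, edgeR adjusted p = 0.000925). In Thbd/Ptgis cells it stood at 407 and 376 CPM in DTA- and 669 and 714 CPM in DTA+ (log2 fold change 0.78, SE 0.14, edgeR adjusted p = 0.000222). In both populations the gap between the genotypes was wider than that between replicates. In the first 8.39% and in the second 13.2% of all genes were called. The Thbd/Ptgis cells came apart by genotype at a clustering resolution of 1.2, as given below for Wnt2. A change within a cell type and a change of cell type cannot be told apart in them.

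The other called populations had changes of similar size. Osteogenic-like mesenchyme, the cells of Runx2 and Sp7, held 861 and 867 CPM in DTA- and 1546 and 1332 CPM in DTA+ (log2 fold change 0.75, SE 0.14, edgeR adjusted p = 0.00315), where 3.74% of all genes were called. Corpus cavernosum-like cells, marked by Sox9 and cartilage collagens, held 282 and 231 CPM in DTA- and 406 and 508 CPM in DTA+ (log2 fold change 0.73, SE 0.15, edgeR adjusted p = 0.00576), where 8.43% were. Foxl2 periurethra-like cells, the mesenchyme marked by Foxl2 and Sall3, held 901 and 777 CPM in DTA- and 1403 and 1395 CPM in DTA+ (log2 fold change 0.71, SE 0.14, edgeR adjusted p = 0.0160), where 3.59% were. Samples of the 2 genotypes did not overlap in any of them. The call was lost in corpus cavernosum-like cells without DTA+ replicate 1 (0.90, adjusted p = 0.182) or DTA+ replicate 2 (0.54, adjusted p = 0.416), and in osteogenic-like mesenchyme without DTA+ replicate 1 (0.66, adjusted p = 0.101). It was also lost in the first with no filter on low counts (0.73, adjusted p = 0.0718). It was lost in the second when cells were clustered without the genes that differ by genotype (0.56, adjusted p = 0.0609), where 43.13% of the matched cluster was osteogenic-like. In Foxl2 periurethra-like cells it was lost without DTA- replicate 1 (0.80, adjusted p = 0.237) or DTA- replicate 2 (0.61, adjusted p = 0.298). The log2 fold change was 0.71 in Hand2os1/Prss35 cells, where 1.29% of all genes were called, and 0.49 in distal glans-like cells, where 5.08% were. In Hand2os1/Prss35 cells the call was lost without DTA- replicate 1 (0.76, adjusted p = 0.115), DTA- replicate 2 (0.66, adjusted p = 0.0728) or DTA+ replicate 2 (0.56, adjusted p = 0.0521), and after thinning to 1000 UMIs per cell (0.61, adjusted p = 0.284). In the 6 mesenchymal populations without a call it lay between 0.24 in Sostdc1/Nts cells, where DTA- already held 1262 and 1551 CPM, and 0.55 in Kera/Nefl cells. The number of DTA+ cells in the Sostdc1/Nts population changed with the clustering resolution, as given below for Wnt16.

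Distal glans-like cells were themselves rich in Wnt5a. The summed level of the 7 distal glans markers was higher in both DTA+ samples than in both DTA- samples in 7 of the 7 populations with a Wnt5a call and in 3 of the 6 without one. It was 556 and 469 CPM in DTA- and 684 and 906 CPM in DTA+ in Coch/Meox2 cells, 284 and 205 CPM in DTA- and 429.7 and 438 CPM in DTA+ in Thbd/Ptgis cells, 495 and 385 CPM in DTA- and 545 and 636 CPM in DTA+ in corpus cavernosum-like cells and 594 and 498 CPM in DTA- and 691 and 976 CPM in DTA+ in Foxl2 periurethra-like cells. In each of these 4 populations 2 of the markers were called higher and 0 lower, and the part of these markers in the result was not tested. Distal glans-like cells, among the 7 populations with a call, are themselves named by these markers. The markers are not limited to them, as Msx1, Msx2, Hoxa13 and Hoxd13 were also enriched in Hand2os1/Prss35 cells. For the subdermal prepuce markers the same counts were 0 of 7 and 4 of 6, and for the general prepuce markers 1 of 7 and 3 of 6. Over single genes 25.7% of gene and population pairs were higher in DTA+ without overlap.

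For Wnt5a, both DTA+ samples lay above both DTA- samples in all 13 tested mesenchymal populations. Of 6976 genes tested in every one of them 0.172% did so, 0.229% were called higher in at least 7 of them, and over single gene and population pairs 25.7% had no overlap in this direction. The populations come from the same 4 samples and are not independent repeats. The untested Akap12-led clusters are not among these 13. Clustering without the genes that differ by genotype gathered most of their cells together. Wnt5a was there at 770 and 1001 CPM in DTA- and 1394 and 866 CPM in DTA+, with overlap (log2 fold change 0.27, edgeR adjusted p = 0.646). The matching cluster at resolution 0.4 was a different mixture that lacked most Iyd/Stmn2 cells. It held 1113 and 1603 Wnt5a UMIs in DTA+, against 5504 and 3425 in the Iyd/Stmn2 cluster alone. The samples overlapped there too (log2 fold change -0.42, edgeR adjusted p = 0.473). Summed over the 28249 mesenchymal cells, Wnt5a was at 728 and 811 CPM in DTA- and 1079.5 and 1143 CPM in DTA+ (log2 fold change 0.46, SE 0.10, edgeR adjusted p = 0.0814), which missed the threshold, while DESeq2 called it (adjusted p = 0.0267). Outside the mesenchyme 0 of 7 populations were called by either tool, at levels from 12.2 and 34.1 CPM in the DTA- samples in Schwann and glia-like cells to 484 and 505 CPM in the DTA- samples in erythroid-like cells. The highest log2 fold change of Wnt5a, 1.14, lay there, against 0.81 in the mesenchyme. DTA+ samples were higher without overlap in macrophage-like cells (59.6 and 82.1 CPM against 16.7 and 44.1), epithelium-like cells (127 and 170 against 90.4 and 100) and erythroid-like cells (580 and 709). They were lower without overlap in pericyte-like cells (112 and 149 against 173 and 182), and the other populations overlapped.

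**Figure D3:**
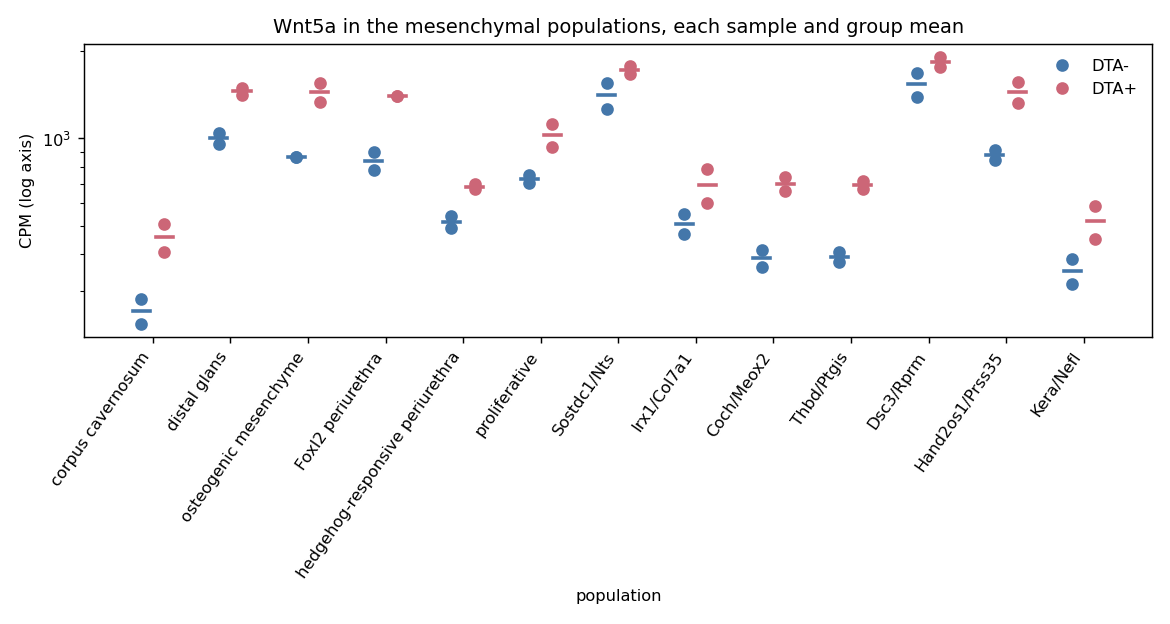
Wnt5a in the 13 tested mesenchymal populations, in CPM on a log axis, with points for samples (n = 2 per genotype) and lines for group means. In each population both DTA+ points lie above both DTA- points, with DTA- samples between 231 and 1679 CPM and DTA+ samples between 406 and 1899 CPM.

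Wnt2 moved in opposite directions in different populations. In Foxl2 periurethra-like cells it stood at 8.37 and 16.3 CPM in DTA- and 239 and 109 CPM in DTA+, the largest change of the 106 pairs (log2 fold change 3.81, SE 0.42, edgeR adjusted p = 0.000632), where 3.59% of all genes were called. The genotypes did not overlap, although the DTA+ samples lay far apart. Without DTA- replicate 1 the change was 3.35, adjusted p = 0.112. The 6 general markers of the prepuce, Akap12 among them, summed to 700.0 and 666 CPM in DTA- and 2251 and 1301 CPM in DTA+ in the same cells, with 1 marker called higher and 0 lower. They were thus higher in both DTA+ samples and highest in the same sample as Wnt2, and their part in the result was not tested.

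In DTA- the share of Foxl2 periurethra-like cells with at least 1 Wnt2 UMI was 3.11% (9 of 289 cells, exact binomial 95% interval 1.43% to 5.83%) and 4.26% (12 of 282 cells, exact binomial 95% interval 2.22% to 7.32%). In DTA+ it was 42.5% (137 of 322 cells, exact binomial 95% interval 37.1% to 48.1%) and 22.2% (98 of 442 cells, exact binomial 95% interval 18.4% to 26.3%). These intervals cover counting error only, and those of the 2 genotypes did not meet. The DTA+ cells were the shallower ones, with medians of 3680.5 and 3658.5 UMIs against 5042 and 3826. In macrophage-like cells, which should lack the gene and had medians of 4719, 4630.5, 4815 and 5195 UMIs, the shares were 0% and 0% in DTA- and 3.90% and 0% in DTA+. Thinned to 1000 UMIs per cell, the shares in Foxl2 periurethra-like cells were 1.04% and 1.77% in DTA- and 15.5% and 9.73% in DTA+.

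The second periurethral population went the same way. Hedgehog-responsive periurethra-like cells, marked by Ptch1, Gli1 and Hhip, held 11.9 and 5.64 CPM in DTA- and 50.6 and 27.5 CPM in DTA+ (log2 fold change 1.93, SE 0.40, edgeR adjusted p = 0.00332), where 4.1% of all genes were called. When cells were clustered without the genes that differ by genotype the change was no longer called (1.2, adjusted p = 0.196). The general prepuce markers summed to 1028 and 1083 CPM in DTA- and 1354 and 1508 CPM in DTA+ there, also without overlap. In the Thbd/Ptgis population Wnt2 fell, at 128 and 127 CPM in DTA- and 84.4 and 64.9 CPM in DTA+ (log2 fold change -0.82, SE 0.18, edgeR adjusted p = 0.00258), where 13.2% of all genes were called. All 4 samples kept the gene there, and the genotypes did not overlap. The fall was not called without DTA+ replicate 2 (-0.64, adjusted p = 0.148) or after thinning to 1000 UMIs (-0.56, adjusted p = 0.195). Of the 6 general prepuce markers 4 were called lower and 0 higher in the same cells, with a sum of 1659 and 2066 CPM in DTA- and 1229.9 and 1151 CPM in DTA+, and their part in the result was not tested. At a clustering resolution of 1.2 the population came apart by genotype, into a cluster with 49 and 18 DTA- cells and 444 and 442 DTA+ cells and a cluster with 402 and 403 DTA- cells and 7 and 15 DTA+ cells. A change within a cell type and a change of cell type cannot be told apart there.

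In the Akap12-led clusters Wnt2 had levels but no test within a cluster. The Ly6a/Igfbp5 cluster held 178 and 141 CPM in the DTA- samples, from 258 and 885 cells, and only 20 and 7 cells of DTA+. The Iyd/Stmn2 cluster held 182 and 101 CPM in the DTA+ samples, from 685 and 428 cells, and the Ccn3 cluster 149.9 and 93.8 CPM in the DTA+ samples, from 287 and 656 cells. Clustering without genotype-dependent genes gathered most of these cells in 1 cluster of 3100 cells, with 398 to 914 per sample. There Wnt2 was at 140.5 and 135 CPM in DTA- and 167 and 97.5 CPM in DTA+, with overlapping samples (log2 fold change -0.14, SE 0.24, edgeR adjusted p = 0.850).

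Wnt4 was called in 1 of the 12 populations in which it was tested. Foxl2 periurethra-like cells held 25.1 and 51.6 CPM in DTA- and 11.4 and 9.60 CPM in DTA+ (log2 fold change -1.87, SE 0.39, edgeR adjusted p = 0.0235). The genotypes did not overlap, but the DTA- samples lay far apart. The fall was not called without DTA- replicate 1 (-2.34, adjusted p = 0.0561) or DTA- replicate 2 (-1.28, adjusted p = 0.264), nor when cells were clustered without genotype-dependent genes (-1.27, adjusted p = 0.101), at a resolution of 0.4 (-1.11, adjusted p = 0.181) or with the 10 genes among the variable genes (-1.74, adjusted p = 0.0774), which is 5 of 17 alternatives. The matched clusters were 51.91% Foxl2 periurethra-like at resolution 0.4 and 75.06% without genotype-dependent genes. Of the 11 epithelial markers 0 passed the filter in Foxl2 periurethra-like cells, Krt18 and Foxa1 were at 0, and the summed level was 25.1 and 22.6 CPM in DTA- and 33.5 and 27.0 CPM in DTA+. With 0 markers past the filter this sum lay near the floor, and its part in the result was not tested. In epithelium-like cells, where its level was highest, Wnt4 was at 289.8 and 357 CPM in DTA- and 308 and 405 CPM in DTA+, which overlapped (log2 fold change 0.06, SE 0.25, edgeR adjusted p = 0.994). These cells held 13.6% of the Wnt4 UMIs of DTA- cells, and distal glans-like cells 24.5%.

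**Figure D4:**
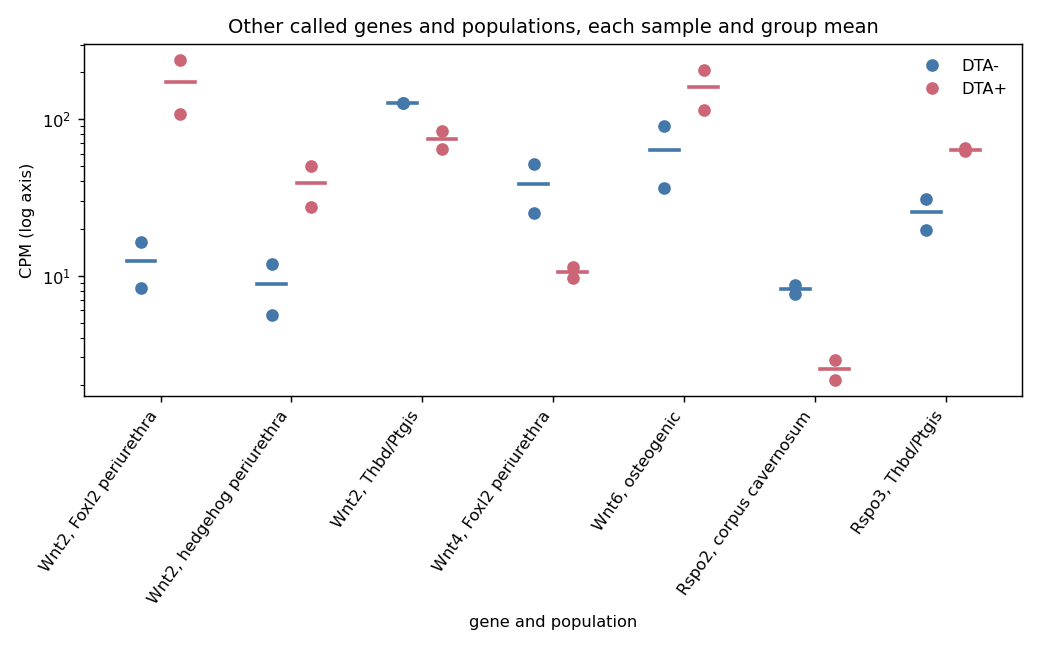
CPM on a log axis for the 7 called pairs other than those of Wnt5a, with points for samples (n = 2 per genotype) and lines for group means. The genotypes do not overlap in any of the 7, and the widest gap is that of Wnt2 in Foxl2 periurethra-like cells, between 16.3 and 109 CPM.

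Wnt6 rose in osteogenic-like mesenchyme, from 90.7 and 36.4 CPM in the DTA- samples to 207 and 115 CPM in the DTA+ samples (log2 fold change 1.18, SE 0.29, edgeR adjusted p = 0.0276), where 3.74% of all genes were called. The genotypes did not overlap, but DTA- replicate 1 lay closer to the lower DTA+ sample than to its own replicate. The call was lost under 6 of 18 alternatives. These were leaving out DTA+ replicate 1 (0.76, adjusted p = 0.101), DESeq2 (1.33, adjusted p = 0.681), a clustering resolution of 0.4 (0.51, adjusted p = 0.332), clustering without genotype-dependent genes (0.47, adjusted p = 0.447), a block of crossed replicate numbers (1.19, adjusted p = 0.108) and leaving out likely doublets, where the change of 1.22 just missed a call. At resolution 0.4 and without genotype-dependent genes the matched clusters were wider mixtures of 3490 and 3357 cells. Of these, 43.98% and 43.13% were osteogenic-like. The neighbouring Wnt10a stood at 88.8 and 29.1 CPM in DTA- and 122 and 76.2 CPM in DTA+ in osteogenic-like mesenchyme, with overlapping samples (log2 fold change 0.55, SE 0.30, edgeR adjusted p = 0.362). In the Dsc3/Rprm population, where both genes were highest, neither was called, with log2 fold changes of 0.11 for Wnt6 and -0.16 for Wnt10a. The 11 epithelial markers summed to 37.8 and 14.6 CPM in DTA- and 51.0 and 36.1 CPM in DTA+ in osteogenic-like cells. They were thus lowest and highest in the same samples as Wnt6, and their part in the result was not tested. At a clustering resolution of 1.2 the osteogenic-like cells came apart. A first cluster held 167 and 43 DTA- cells and 230 and 434 DTA+ cells. A second held 205 and 172 DTA- cells and 58 and 228 DTA+ cells. The part of this makeup in the changes of osteogenic-like cells was not tested.

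Promoter sequences from RefSeq (GRCm38.p6) matched 6 of the 10 genes. The 250 bases before each start site were searched on both strands for a core of the androgen response element (AGAACA or TGTTCT) and the TCF/LEF core (CTTTGA or TCAAAG), which do not overlap each other. Among 32841 promoters 16.1% held the first and 13.8% the second. The promoter of Wnt6 is shown because Wnt6 rose beside the feedback genes of osteogenic-like cells given below. A promoter of Wnt11 is shown because it held the only match among the 6 genes, printed in capitals and starting 50 bases before its start site. Another Wnt11 promoter, chr7:98838595-98838844 on the plus strand, held 0 matches and is not printed.
Wnt6, chr1:74771642-74771891, plus strand: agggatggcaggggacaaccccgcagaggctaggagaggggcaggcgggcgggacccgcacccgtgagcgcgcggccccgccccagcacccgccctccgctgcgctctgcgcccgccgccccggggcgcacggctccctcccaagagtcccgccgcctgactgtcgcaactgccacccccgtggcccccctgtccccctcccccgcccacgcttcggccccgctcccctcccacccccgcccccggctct
Wnt11, chr7:98834862-98835111, plus strand: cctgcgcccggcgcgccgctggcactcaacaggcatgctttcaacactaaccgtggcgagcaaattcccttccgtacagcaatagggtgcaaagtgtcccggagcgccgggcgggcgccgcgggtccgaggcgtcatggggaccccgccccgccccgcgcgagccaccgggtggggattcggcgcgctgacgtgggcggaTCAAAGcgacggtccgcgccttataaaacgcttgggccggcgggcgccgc
A match is a run of letters and not a known site. Wnt11 was called in 0 of the 13 populations tested by edgeR's quasi-likelihood test, 0 had an unadjusted p under 0.05, and DESeq2 called 0.

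Rspo3 rose in the Thbd/Ptgis population, from 31.1 and 19.6 CPM in the DTA- samples to 62.3 and 65.6 CPM in the DTA+ samples (log2 fold change 1.26, SE 0.23, edgeR adjusted p = 0.000387). The DTA+ samples were close together and well above the DTA- samples, but these are the cells that came apart by genotype at a clustering resolution of 1.2. The change was smaller and not called at a clustering resolution of 0.4 (0.48, adjusted p = 0.144) or without genotype-dependent genes (0.44, adjusted p = 0.15). In these clusterings 67.3% and 46.65% of the matched cells came from the Thbd/Ptgis population. Where Rspo3 was highest it was not called. Corpus cavernosum-like cells held 205 and 162 CPM in DTA- and 239 and 230.0 CPM in DTA+ (log2 fold change 0.25, SE 0.15, edgeR adjusted p = 0.319). Irx1/Col7a1 cells held 135 and 171 CPM in DTA- and 114 and 69.6 CPM in DTA+ (log2 fold change -0.78, SE 0.25, edgeR adjusted p = 0.378). The most negative value was that of Kera/Nefl cells, at 75.3 and 83.1 CPM in DTA- and 47.8 and 32.7 CPM in DTA+ (log2 fold change -0.99, SE 0.26, edgeR adjusted p = 0.161), where the genotypes did not overlap either.

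Rspo2 was the only one of the 10 called over the whole mesenchyme, where 1.19% of all genes were called. It stood at 2.93 and 1.75 CPM in DTA- and 7.87 and 10.9 CPM in DTA+ (log2 fold change 1.94, SE 0.29, edgeR adjusted p = 0.0376), with no overlap. Most of the DTA+ signal lay in the Akap12-led cells, with 103 and 105 UMIs (36.9 and 55.2 CPM in the DTA+ samples) in the Iyd/Stmn2 cluster and 49 and 165 UMIs (42 and 54.9 CPM in the DTA+ samples) in the Ccn3 cluster. In DTA- the Ly6a/Igfbp5 cluster held 10 and 11 UMIs (7.28 and 2.57 CPM in the DTA- samples). When these 3 clusters were left out, Rspo2 was at 2.44 and 1.61 CPM in DTA- and 2.50 and 2.85 CPM in DTA+ (log2 fold change 0.33, SE 0.29, edgeR adjusted p = 0.603). The call over the mesenchyme was also lost without DTA- replicate 1 (2.36, adjusted p = 0.0542) or DTA- replicate 2 (1.60, adjusted p = 0.0682).

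In the cluster of 3100 cells formed without genotype-dependent genes, Rspo2 was at 6.69 and 2.77 CPM in DTA- and 33.8 and 57.4 CPM in DTA+ (log2 fold change 3.35, SE 0.40, edgeR adjusted p = 0.00563), where 2.94% of all genes were called. It was the only one of the 10 called there. At resolution 0.4 the matching cluster of 2095 cells gave 3.15 (edgeR adjusted p = 0.00186), where 3.7% of all genes were called, and Rspo3 was called as well, at 83.7 and 25.8 CPM in DTA- and 125 and 394 CPM in DTA+ (log2 fold change 2.30, edgeR adjusted p = 0.0361). Of the 3100 cells 30.6% came from the Ly6a/Igfbp5 cluster, 27.6% from Ccn3 and 23.8% from Iyd/Stmn2, which each came mostly from 1 genotype. A change of Rspo2 within a cell type and a change in which cells were present therefore cannot be told apart.

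**Figure D5:**
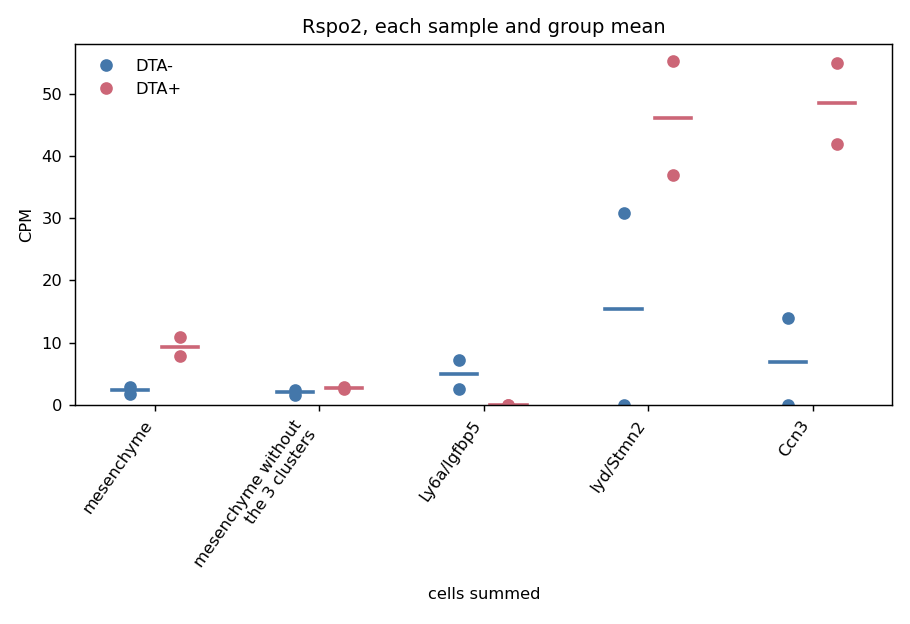
Rspo2 in CPM over the mesenchyme, over the mesenchyme without the Ly6a/Igfbp5, Iyd/Stmn2 and Ccn3 clusters, and in each of these, with points for samples (n = 2 per genotype) and lines for group means. Over the whole mesenchyme DTA- reaches 2.93 CPM and DTA+ starts at 7.87 CPM, and without the 3 clusters these are 2.44 and 2.50 CPM, while the DTA- points of Iyd/Stmn2 rest on 12 and 11 cells, those of Ccn3 on 89 and 12, and the DTA+ points of Ly6a/Igfbp5 on 20 and 7.

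In corpus cavernosum-like cells Rspo2 moved the other way, from 22 and 20 UMIs (8.70 and 7.62 CPM in the DTA- samples) to 6 and 8 UMIs (2.15 and 2.90 CPM in the DTA+ samples, log2 fold change -1.78, SE 0.44, edgeR adjusted p = 0.0173), where 8.43% of all genes were called. On these few molecules the call was lost without DTA- replicate 1 (-1.70, adjusted p = 0.0626), DTA+ replicate 1 (-1.56, adjusted p = 0.377) or DTA+ replicate 2 (-2.03, adjusted p = 0.360), and with no filter on low counts (-1.78, adjusted p = 0.0660).

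Wnt16, Rspo1, Wnt11 and Wnt10a had no call by edgeR's quasi-likelihood test. Wnt16 over the mesenchyme stood at 26.8 and 27.7 CPM in DTA- and 21.1 and 19.0 CPM in DTA+, without overlap (log2 fold change -0.52, SE 0.13, edgeR adjusted p = 0.122). Its value was negative in 7 of 9 tested populations, and the nearest to a call was osteogenic-like mesenchyme, at 17 and 21.9 CPM in DTA- and 10.2 and 4.51 CPM in DTA+ (log2 fold change -1.51, SE 0.43, edgeR adjusted p = 0.0554). In the Sostdc1/Nts population, its main source, it stood at 155 and 115 CPM in DTA- and 129 and 135 CPM in DTA+, which overlapped (log2 fold change -0.08, SE 0.18, edgeR adjusted p = 0.943). The DTA+ cells of this population numbered 584 and 606, but 253 and 300 at a clustering resolution of 1.2 and 1273 and 1028 at 0.4. The DTA- cells numbered 564 and 924, 491 and 925, and 593 and 1006. The part of this moving boundary in the result was not tested.

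Rspo1 stood at 216 and 166 CPM in DTA- and 277 and 379 CPM in DTA+ in Irx1/Col7a1 cells, without overlap (log2 fold change 0.71, SE 0.20, edgeR adjusted p = 0.246). In Foxl2 periurethra-like cells it had the opposite sign, at 118 and 103 CPM in DTA- and 81.7 and 74.4 CPM in DTA+ (log2 fold change -0.54, SE 0.19, edgeR adjusted p = 0.183). Wnt11 in its highest population, Thbd/Ptgis, stood at 54.0 and 66.6 CPM in DTA- and 37.1 and 54.0 CPM in DTA+, which overlapped (log2 fold change -0.42, SE 0.22, edgeR adjusted p = 0.214). An unadjusted p under 0.05 was found in 3 of 9 populations for Wnt16, 6 of 11 for Rspo1, 0 of 13 for Wnt11 and 0 of 7 for Wnt10a. DESeq2 called none of these pairs, and edgeR's likelihood ratio test called 1 for Wnt16 and 0 for each of the others. Over all cells together, 0 of the 10 genes were called by edgeR's quasi-likelihood test against 0.488% of all genes, with an unadjusted p under 0.05 for 4 of them, and DESeq2 called 2 and the likelihood ratio test 1.

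Opposite signs were tested as differences of the response between populations, between the called population with the largest change of a gene and the one with the largest change of opposite sign (called there, or with a mean of at least 20 CPM). The pairs were thus picked by their values, and the sizes describe extremes. The adjusted p-values and the shares of all genes beside them take no account of this choice. Wnt2 differed between Foxl2 periurethra-like and Thbd/Ptgis cells by 4.57 (SE 0.31, edgeR adjusted p = 2.52e-08), where 4.08% of all genes differed. Rspo3 differed between Thbd/Ptgis and Kera/Nefl cells by 2.28 (SE 0.31, edgeR adjusted p = 1.18e-05), where 2.24% did. Both were also called after thinning to 1000 UMIs. Wnt4 differed between Foxl2 periurethra-like and osteogenic-like cells by -2.71 (SE 0.54, edgeR adjusted p = 0.0110), Wnt6 between osteogenic-like and epithelium-like cells by 1.5 (SE 0.30, edgeR adjusted p = 0.00119) and Wnt5a between Coch/Meox2 and pericyte-like cells by 1.31 (SE 0.33, edgeR adjusted p = 0.0226), where 2.12%, 0.445% and 0.322% of all genes differed. These 3 were not called after thinning (adjusted p = 0.257, 0.227 and 0.752).

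Other genes of the pathway were followed as 7 lists with 61 genes, also chosen with earlier results of these data known. Of 582 tested pairs of such a gene and a population 51 were called higher and 12 lower, which is 10.8% beside the 3.37% over all genes, and the median log2 fold change was 0.18 beside 0.00 over all genes. Secreted inhibitors had 25 pairs called higher and 7 lower of 119 (26.9%). Dkk2, which blocks the LRP co-receptors, was called higher in 8 of 15 populations and lower in 0. In Thbd/Ptgis cells, where Wnt2 fell and Rspo3 rose, Dkk2 went from 10.2 and 19.6 CPM to 110.4 and 121 CPM (log2 fold change 2.96, edgeR adjusted p = 1.58e-09). In Foxl2 periurethra-like cells, where Wnt2 rose and Wnt4 fell, it went from 83.0 and 58.9 CPM to 572 and 479.8 CPM (2.85, edgeR adjusted p = 3.17e-05). Sfrp1, which binds Wnt ligands, was called higher in 4 populations, and in corpus cavernosum-like cells it went from 7.91 and 18.7 CPM to 125 and 104 CPM (2.98, edgeR adjusted p = 1.30e-06).

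Sostdc1, a blocker of Wnt and BMP signalling, was called lower in 4 populations and higher in 1. Among the 4 were erythroid-like cells, where it fell from 557 and 317 CPM to 116 and 154 CPM (-1.55) and may not belong to blood cells. In Irx1/Col7a1 cells it went from 312 and 309 CPM to 113 and 162 CPM (log2 fold change -1.26), and in distal glans-like cells from 51.8 and 25.9 CPM to 98.7 and 82.9 CPM (1.12). Transcription factors and feedback targets had 10 pairs called higher and 3 lower of 197 (6.6%). In osteogenic-like mesenchyme, where Wnt5a and Wnt6 rose, the feedback gene Nkd2 went from 85.6 and 42.3 CPM to 259 and 131 CPM (1.47) and the inhibitor Wif1 from 18.3 and 14.6 CPM to 83.6 and 35.2 CPM (1.69). Axin2, a common target of β-catenin named here after its values were seen, went from 33.4 and 42.3 CPM to 75.5 and 77.6 CPM in the same cells (1.08). Osteogenic-like cells are those that came apart at a clustering resolution of 1.2, and the part of that makeup was not tested. In corpus cavernosum-like cells Lef1, a transcription factor of the pathway, fell from 70.0 and 84.9 CPM to 39.0 and 45.0 CPM (-0.99). In Foxl2 periurethra-like cells the target gene Sp5 fell from 71.2 and 72.4 CPM to 6.53 and 33.0 CPM (-1.80).

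Frizzled receptors and co-receptors had 8 pairs called higher and 1 lower of 177 (5.08%), and R-spondin receptors and ligases 3 higher and 1 lower of 38 (10.5%). Lgr4, a receptor of R-spondins, rose in Foxl2 periurethra-like cells from 20.2 and 25.4 CPM to 57.2 and 63.6 CPM (log2 fold change 1.39), while its relative Lgr5 fell in hedgehog-responsive periurethra-like cells from 123 and 123 CPM to 68.4 and 52.6 CPM (-1.10). In both pairs the genotypes did not overlap. The list of secretion genes had 2 pairs called higher of 26 (7.69%), both of Wls, the carrier of Wnt ligands to the cell surface. The 12 other Wnt ligands had 3 called higher of 24 pairs (12.5%), and Rspo4 was tested in 1 population and not called.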

How the data were processed

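Libraries of 2 DTA- and 2 DTA+ samples were compared. The authors aligned the reads to mm10 with Cell Ranger (4.0.0 in the submitters' processing notes) and deposited raw UMI counts per gene and cell for each sample. A cell was kept if its count lay between 1000 and 7500 UMIs and if mitochondrial genes gave no more than 25%, Hba genes 25% and Hbb genes 50% of it. Cells were clustered in Seurat 5.3.0 (2000 variable genes without the 10 members, 30 components, resolution 0.8) and named by marker lists. For each population, sums of UMIs over the cells of a sample were compared by the quasi-likelihood test of edgeR 4.0.16 (R 4.3.3), with TMM scaling, filterByExpr and Benjamini-Hochberg adjustment over all genes of a population, genotype being the only term and 0.05 the threshold. Populations with under 20 cells in a sample were not tested. A doublet caller (Scrublet in scanpy 1.11.5) marked 0 cells at its automatic threshold and so did not work here, and the cells with the highest scores were left out in an alternative instead. Alternatives also included DESeq2 1.42.0, edgeR's likelihood ratio test, RLE size factors, no filter, thinning to 1000 UMIs per cell, other clusterings, leaving out each replicate, and a replicate block. On simulated data with 200 changed genes, 4-fold changes were recovered in 85% to 97% and 2-fold changes in 35% to 68% of cases in the tested mesenchymal populations. In the other tested populations these were 32% to 89% and 1% to 37%, with 66% and 5% in epithelium-like cells. Libraries held 50779551 to 73577028 UMIs before filtering, and intervals cover counting error only.

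The members and the pathway lists were chosen with earlier results of these data known. Text names all 10 members, their 3 closest genes or fewer, and pathway genes called without overlap at a mean of at least 20 CPM, at most 3 per population and direction. Some genes are not reported here.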

Additional observations from a re-analysis of the deposited data

Results flagged for a closer look

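For 5 genes the response to genotype differed between a pair of populations, tested as the interaction of population and genotype (edgeR quasi-likelihood test, 2 samples per genotype), and each pair was picked by its values, as the largest called change and the largest change of opposite sign. The difference was 4.57 for Wnt2 between Foxl2 periurethra-like and Thbd/Ptgis cells, with the gene higher in both DTA+ samples of the first and lower in both of the second. It was 2.28 for Rspo3 between Thbd/Ptgis and Kera/Nefl cells, again with opposite signs and no overlap in either. It was -2.71 for Wnt4 between Foxl2 periurethra-like and osteogenic-like cells, where the osteogenic-like samples overlapped. It was 1.5 for Wnt6 between osteogenic-like and epithelium-like cells, where the epithelium-like samples overlapped, and 1.31 for Wnt5a between Coch/Meox2 and pericyte-like cells, without overlap in either.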

How the results depend on the processing

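At this depth 94 pairs had too few UMIs to be tested. The 14 called pairs were recomputed under 245 combinations with an alternative, of which 213 kept call and direction, 32 lost the call and 0 turned, while DESeq2 gave Rspo2 in corpus cavernosum-like cells no adjusted p. Wnt5a in distal glans-like, Coch/Meox2 and Thbd/Ptgis cells kept its call under all 18 alternatives. Clusters of another clustering were assigned to the population that gave the largest part of their cells. At a resolution of 1.2 the Thbd/Ptgis clusters that came apart by genotype were thus summed again, so that alternative could not show the split. The number of called pairs went from 14 to 9 of 63 tested after thinning to 1000 UMIs, and lay between 12 and 18 when 1 replicate was left out. Over all cells and the mesenchyme, 1 of 20 tests was called, against 4 with DESeq2, 4 with the likelihood ratio test, 4 without the filter, 3 after thinning, 2 without doublets and 0 of 10 in the mesenchyme without the 3 Akap12-led clusters, and 0 to 2 when 1 replicate was left out (0 without DTA- replicate 2, 2 without DTA+ replicate 1 or 2). Of the pathway pairs 63 were called, against 31 with DESeq2 and 22 after thinning, and 41 to 77 when 1 replicate was left out (41 without DTA+ replicate 2). Of the 5 differences between populations 2 were called after thinning. For these changes the cause was not tested, beyond the smaller number of tests after thinning.

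Uncalled values over the mesenchyme changed sign in 7 cases. Wnt4 went to 0.0241 without the upper UMI limit and 0.0131 without the Akap12-led clusters, and lay between -0.228 (without DTA+ replicate 2) and 0.0315 (without DTA+ replicate 1). Wnt10a lay between -0.257 (without DTA- replicate 2) and 0.916 (without DTA- replicate 1), and was -0.0352 without DTA+ replicate 2. Wnt11 was 0.00174 without the upper UMI limit and lay between -0.470 (without DTA+ replicate 2) and 0.217 (without DTA+ replicate 1).

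Replicate numbers are shared between the genotypes, but the labels do not say that a number marks a pairing, and with it as a block 17 pairs were called within populations, 2 over all cells and the mesenchyme, and 74 of the pathway. Deviations of same-numbered samples correlated at -0.26 over 15198 genes in the mesenchyme, and with the numbers crossed, an alternative chosen after seeing the data like that without the Akap12-led clusters, the block gave 20, 8 and 94.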
